A study of Mus musculus with 6 samples.

Results

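The lysosomal cathepsins described here are the products of Ctsa, Ctsb, Ctsc, Ctsd, Ctse, Ctsh, Ctsk, Ctsl, Ctss and Ctsz. They were taken by gene symbol from the table of all genes and not by a cut on their values, and they make up 10 of its 19973 genes. Earlier results of these data were known when they were chosen. Cathepsins are proteases that work inside the acidic lysosome, where they cut proteins brought in by endocytosis, phagocytosis and autophagy. They are made as inactive precursors, most carry a mannose 6-phosphate tag that routes them to the lysosome, and they become active when the propeptide is removed. Most belong to the papain-like cysteine proteases. Ctsd and Ctse are aspartic proteases, and Ctsa is a serine carboxypeptidase. In macrophages the family degrades engulfed cells and microbes, trims antigens for presentation and, when secreted, cuts extracellular matrix.

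RNA was sequenced from peritoneal macrophages of male C57BL/6 mice that were either old (18 months) or young (2 months), with 3 libraries of each age. Every mouse had received 200 µg of zymosan A, a yeast cell wall preparation, into the peritoneal cavity. Cells were lavaged after 72 hours and kept overnight in DMEM with L-cell medium. Cells that had not attached were then washed off, and the rest stood in vehicle (PBS) for 6 hours. All libraries analysed here therefore come from inflamed, cultured and vehicle-treated cells, and they differ by age. The labels mention 3 mice in each group and triplicate sequencing of the RNA of each mouse, without saying which of these a library stands for. The p-values therefore rest on how far these libraries differ among themselves, a spread that may be technical in part.

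Libraries held 9199000, 13008000 and 8163000 reads for old replicates 1, 2 and 3, and 9796000, 11520000 and 12482000 reads for young replicates 1, 2 and 3. Principal component 1, with 71.5% of the variance, kept the ages apart. Principal component 2, with 18.2%, set old replicate 3, at -37.7, and young replicate 3, at 25.3, at its ends. Old replicate 3 also had 1.34% of its reads in ribosomal RNA genes, against 0.0177% to 0.154% in the other 5 libraries. Results that rest on the libraries numbered 3 are therefore also given without them. The 7 macrophage markers Adgre1, Csf1r, Lyz2, Cd68, Fcgr1, Mertk and Itgam were all well above the detection limit in both ages, with sums of 341388 to 425689 normalized counts in old libraries and 272580 to 347334 in young ones. A normalized count is a read count that the authors divided by a size factor for the library. In bulk RNA, fewer cells of a type and less RNA per cell cannot be told apart.

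Cathepsin transcripts were more abundant in old macrophages as a family. The 10 genes summed to 327239, 333056 and 264669 normalized counts in the old libraries, against 184986, 192269 and 231130 in the young ones. The groups did not overlap, and the mean was 1.52-fold higher in old cells (308321 ± 37916 against 202795 ± 24808, SD, n = 3 each), a log2 difference of 0.60. With 3 libraries against 3, a two-sided exact permutation test cannot give less than p = 0.1, and it gave 0.1 here. The family took up 2.84% ± 0.25 of all normalized counts in old libraries and 1.99% ± 0.17 in young ones. Without both libraries numbered 3 the log2 difference of the sum was 0.81. With quantile normalization it was 0.24, with an exact permutation p of 0.2, and the groups then overlapped.

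**Figure D1:**
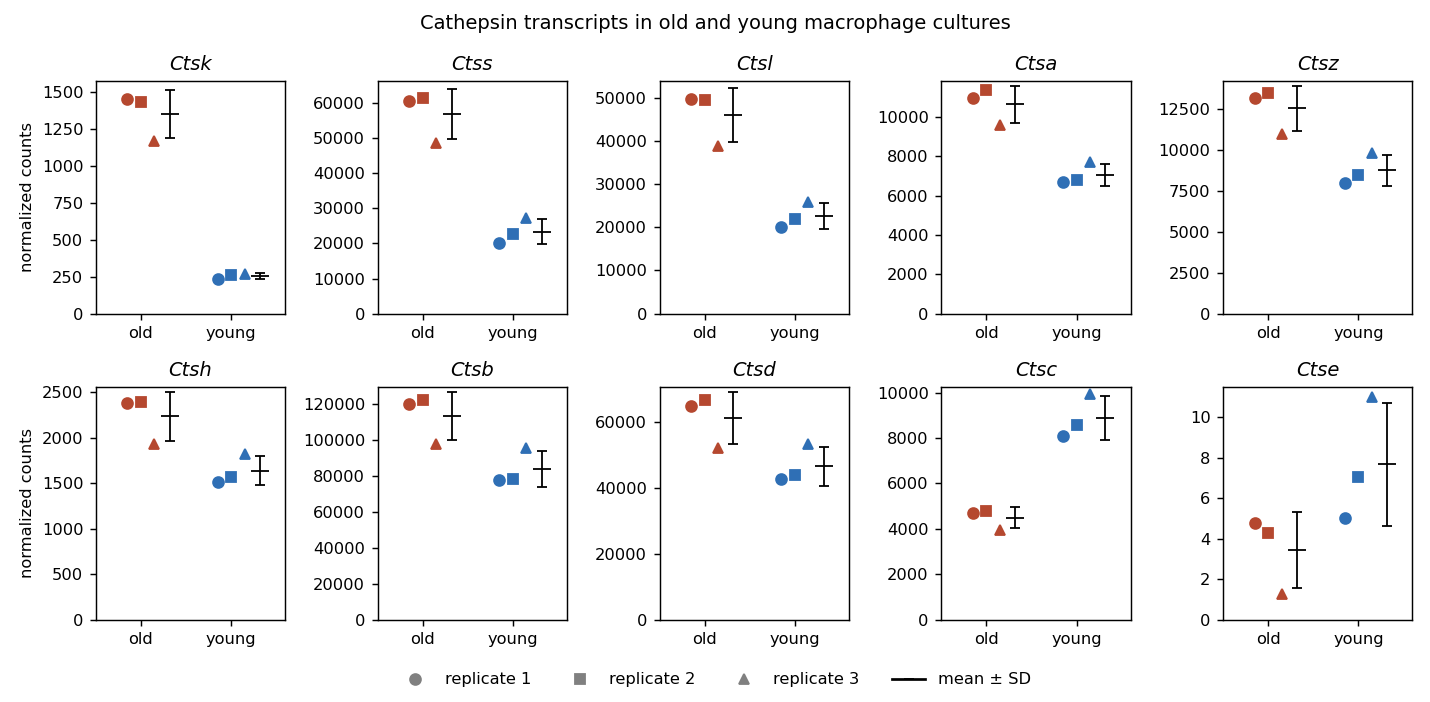
Normalized counts of the 10 cathepsins in each library, old (red) left of young (blue), with replicates 1, 2 and 3 as circles, squares and triangles and a bar for the mean ± SD. Each panel has its own linear axis that starts at 0. Old replicate 3 is the lowest old library and young replicate 3 the highest young library in every panel, and Ctsc and Ctse are the panels in which the young libraries stand above the old ones.

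Of the 10 genes, 9 had a mean of at least 10 normalized counts and were tested with limma, and Ctse fell below that limit. At an adjusted p under 0.05, Ctsk, Ctss, Ctsl, Ctsa, Ctsz and Ctsh rose in old cells, Ctsc fell, and Ctsb and Ctsd did not pass. Over all 11795 tested genes 35.5% were called, 17.9% higher and 17.6% lower in old cells. The median log2 fold change of the tested cathepsins was 0.52, against 0.00 over all tested genes. Old and young libraries did not overlap for 8 of the 9 tested cathepsins, where 47.5% of all tested genes did not overlap. Ctsd was the member whose groups overlapped.

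The DNA in front of the cathepsin genes is shown because the best known regulators of lysosomal genes, the MiT-TFE family of transcription factors, bind CLEAR elements built around the letters CACGTG. RefSeq windows of 250 bases before an annotated start, on GRCm38.p6, were at hand for 7 of the 10 genes in 8 entries. CACGTG reads the same on both strands and occurred in 6.02% of all 32851 windows of this length. The full palindromic CLEAR element of 10 letters, which has CACGTG at its centre, had an exact match in 0.240% of windows. It had no exact match in the 8 entries of the members. Ctsb, Ctse and Ctsh had no entry and were not searched. CACGTG was found in the windows of Ctsd, Ctsl and Ctsa and not in those of Ctsk, Ctss, Ctsc and Ctsz. Genes called higher in old cells thus occurred both with these letters (Ctsl and Ctsa) and without them (Ctsk, Ctss and Ctsz). The windows printed whole belong to the pair with the highest log2 fold changes and to the member that fell. They are those of Ctsk (chr3:95498960-95499209, plus strand), Ctss (chr3:95526536-95526785, plus strand) and Ctsc (chr7:88277835-88278084, plus strand), and they hold no annotated exon. The Ctsk window lies before its RefSeq start, and the GENCODE transcripts used here start further on, at 95499256.
Ctsk: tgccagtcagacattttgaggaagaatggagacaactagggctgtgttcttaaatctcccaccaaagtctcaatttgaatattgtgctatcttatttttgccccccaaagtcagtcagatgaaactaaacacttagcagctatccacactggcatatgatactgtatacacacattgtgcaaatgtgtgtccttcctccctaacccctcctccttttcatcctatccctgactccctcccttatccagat
Ctss: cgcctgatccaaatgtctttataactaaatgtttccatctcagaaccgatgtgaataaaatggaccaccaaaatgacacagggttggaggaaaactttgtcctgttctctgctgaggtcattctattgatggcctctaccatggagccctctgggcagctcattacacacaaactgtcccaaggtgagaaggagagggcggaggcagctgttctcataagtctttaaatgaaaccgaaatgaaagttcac
Ctsc: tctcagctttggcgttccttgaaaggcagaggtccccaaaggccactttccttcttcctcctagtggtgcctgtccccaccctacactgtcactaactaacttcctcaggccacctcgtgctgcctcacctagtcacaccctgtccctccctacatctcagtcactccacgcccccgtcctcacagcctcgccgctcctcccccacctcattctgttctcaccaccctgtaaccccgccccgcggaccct
For the genes with a match, 30 bases around each site are printed with CACGTG in capitals, because their windows run into annotated exons of other transcripts. In Ctsd the letters begin 245 and 98 bases before the annotated start (chr7:142388048-142388077 and chr7:142387908-142387937, minus strand). In Ctsl they begin 236 bases before it (chr13:64370739-64370768, minus strand), and at the downstream start of Ctsa 12 bases before it (chr2:164833743-164833772, plus strand). A match describes these letters and is not evidence of a bound site.
Ctsd, 245 bases before: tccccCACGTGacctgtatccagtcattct
Ctsd, 98 bases before: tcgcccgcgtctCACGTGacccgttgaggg
Ctsl: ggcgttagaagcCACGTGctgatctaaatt
Ctsa: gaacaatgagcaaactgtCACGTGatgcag

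Ctsk encodes cathepsin K, the collagen-cutting protease best known from bone-resorbing osteoclasts. It had the highest log2 fold change of the 9 tested cathepsins. Its level was 1447, 1433 and 1163 normalized counts in old libraries, against 232, 263 and 268 in young ones. Even the lowest old library stood far above the highest young library. The mean was 1348 ± 160 in old and 254 ± 19.3 in young cells, 5.30-fold higher in old, or 2.40 ± 0.10 on the log2 scale (SE, limma adjusted p = 2.71e-07). Ctsk (ENSMUSG00000028111) lies on GRCm38 chromosome 3 at 95499256 to 95509362 on the plus strand.

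Ctss encodes cathepsin S, an endopeptidase that stays active at neutral pH and cuts the class II chaperone Cd74 in antigen-presenting cells. Its level was 60451, 61415 and 48518 normalized counts in old libraries, against 20171, 22755 and 27082 in young ones, with no overlap. It rose 2.43-fold in old cells, or by 1.29 ± 0.14 on the log2 scale (limma adjusted p = 0.000116). Ctss lies next to Ctsk on the same strand of chromosome 3, at 95526786 to 95556403, with 17423 bases and no annotated gene between them. The nearest genes with values on either side of the pair were called in opposite directions. On the side of Ctss, beyond Hormad1, which was not analysed here, Golph3l, a Golgi trafficking gene, rose by 0.41 on the log2 scale (limma adjusted p = 0.00248), and on the side of Ctsk, Arnt, a partner of hypoxia-inducible factors and the dioxin receptor, fell by 0.47 (limma adjusted p = 0.00709). These neighbours were looked up after the values of Ctsk and Ctss were seen.

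Ctsl encodes cathepsin L, a broad lysosomal endopeptidase. Its level was 49665, 49410 and 38687 normalized counts in old libraries, against 20160, 21870 and 25919 in young ones. All old libraries stood above all young ones. The mean was 2.03-fold higher in old cells, or 1.02 ± 0.14 on the log2 scale (limma adjusted p = 0.000418). Ctsl lies on chromosome 13 at 64359337 to 64370890 on the minus strand and overlaps the antisense gene Gm47123, which had a mean of 0.430 normalized counts.

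Ctsz and Ctsh, cysteine proteases that trim proteins from their ends, had smaller log2 fold changes than the endopeptidases above. Ctsz, cathepsin Z or X, removes residues from the carboxyl end and is placed at chromosome 2, 174427493 to 174439039. It had 13185, 13438 and 10958 normalized counts in old libraries, against 7994, 8458 and 9788 in young ones. It rose 1.43-fold, or by 0.52 ± 0.11 on the log2 scale (limma adjusted p = 0.00512). Ctsh, chiefly an aminopeptidase, at chromosome 9, 90054152 to 90076089, had 2385, 2399 and 1929 normalized counts in old libraries, against 1520, 1574 and 1827 in young ones. It rose 1.36-fold (log2 fold change 0.45 ± 0.10, limma adjusted p = 0.00889). For both genes the gap between the lowest old and the highest young library was small, and both libraries at the gap were numbered 3.

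Ctsb, cathepsin B, which acts both as an endopeptidase and as a dipeptidase at the carboxyl end, lies on chromosome 14 at 63122462 to 63145923. Its counts, which grow with transcript length, were the highest of the family, with 119528, 121869 and 97513 in old libraries, against 77428, 78096 and 95135 in young ones. The groups came close to each other without overlapping. The log2 fold change was 0.43 ± 0.16, and limma gave an adjusted p of 0.0605. This call depended on the fit: the adjusted p of Ctsb was 0.0187 with edgeR and 0.000193 with DESeq2 on recovered reads. With limma it was 0.0113 when old replicate 3 was left out and 0.0361 when young replicate 3 was. In 11 of 20 alternatives Ctsb again did not pass. Among these were quantile normalization (limma adjusted p = 0.575) and leaving out old replicate 1 (0.219), old replicate 2 (0.198), young replicate 1 (0.162) or young replicate 2 (0.234).

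Ctsc is the member that went the other way. It encodes cathepsin C, a dipeptidyl peptidase that activates the granule serine proteases of neutrophils, mast cells and cytotoxic lymphocytes, and it lies on chromosome 7 at 88278085 to 88310888. Its level was 4716, 4786 and 3952 normalized counts in old libraries, against 8068, 8581 and 9936 in young ones. Every old library stood below every young library. The mean was 1.98-fold higher in young cells (4485 ± 462 in old and 8862 ± 965 in young), which is -0.98 ± 0.10 on the log2 scale (limma adjusted p = 8.38e-05).

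Among the aspartic proteases, Ctsd, cathepsin D, a main lysosomal endopeptidase, lies on chromosome 7 at 142375911 to 142388038. It had 64903, 66943 and 52358 normalized counts in old libraries, against 42738, 43890 and 53467 in young ones. Old replicate 3 lay below young replicate 3, so the groups overlapped. The log2 fold change was 0.39 ± 0.14 and limma gave an adjusted p of 0.0613. As with Ctsb, the call for Ctsd depended on the fit, and it passed with edgeR (0.0328), with DESeq2 (0.00155), and with limma without old replicate 3 (0.00672) or without young replicate 3 (0.0304). Ctsd did not pass with quantile normalization (limma adjusted p = 0.354). Nor did it pass without old replicate 1 (0.214), old replicate 2 (0.202), young replicate 1 (0.179) or young replicate 2 (0.221). Ctse, cathepsin E, an endosomal protease of immune and epithelial cells, was near the detection limit. It had 4, 5 and 1 reads in old libraries, against 5, 8 and 13 reads in young ones. Tested with no filter on low values, it had -1.02 ± 0.54 on the log2 scale (limma adjusted p = 0.227).

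Ctsa encodes cathepsin A, which besides its carboxypeptidase activity holds the neuraminidase Neu1 and the galactosidase Glb1 in a protective complex. It had 10955, 11358 and 9589 normalized counts in old libraries, against 6669, 6775 and 7698 in young ones, with no overlap. It rose 1.51-fold (log2 fold change 0.59 ± 0.09, limma adjusted p = 0.000967). Ctsa, on chromosome 2 at 164832873 to 164841032, overlaps the opposite-strand genes Neurl2 and Pltp, which had means of 80.0 and 1192 normalized counts. Ctsb overlaps Fdft1 (mean 299) and Ctsz overlaps Nelfcd (mean 271) in the same way. Whether the authors' counting used strand is not given in the sources used here, so reads in shared exons of such pairs could not be assigned. On the same strand, Ctsl shares 395 exonic bases with the pseudogene Gm49230 and Ctsd 227 with Gm49369, which adds the same uncertainty to their counts. Among the list genes named further on, Ctsw, Napsa, Ifi30, Gnptab, Gnptg, Rragc, H2-DMa, Ciita, Acp5, Csf1r and Pdgfra overlap genes on the opposite strand, and Glb1, Ctla2a, Ctla2b, Cd74, Itgam, Col3a1 and Pdgfra overlap annotated genes on their own strand.

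The libraries numbered 3 moved all tested cathepsins together. In old replicate 3 the 9 genes stood at 0.781 to 0.860 of the mean of old replicates 1 and 2, where the median of all tested genes was 0.964. In young replicate 3 they stood at 1.08 to 1.26 of the mean of young replicates 1 and 2, where the median of all tested genes was 1.03. Both libraries therefore narrowed the age difference of the genes that were higher in old cells. With both left out, 8 cathepsins rose and Ctsc fell, where 59.0% of all tested genes were called, 30.3% higher and 28.7% lower. Ctsb then stood at 0.63 on the log2 scale (limma adjusted p = 8.54e-07) and Ctsd at 0.61 (limma adjusted p = 1.81e-07). What sets these libraries apart was not tested.

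**Figure D2:**
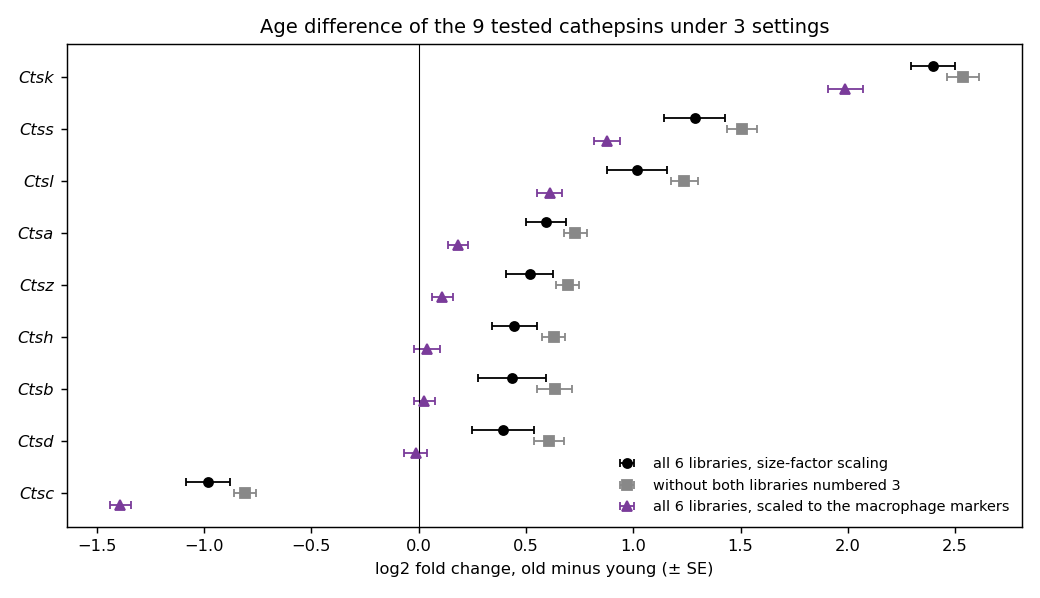
Log2 fold change, old minus young, of the 9 tested cathepsins (bars, ± SE) with all libraries (black circles), without both libraries numbered 3 (grey squares) and with libraries scaled to the macrophage markers (purple triangles). Ctsk lies between 1.99 and 2.54 in all 3 settings and Ctsc below 0, while Ctsb and Ctsd lie at 0.03 and -0.01 once scaled to the macrophage markers.

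The macrophage markers were themselves higher in old libraries, and their values stand beside the smaller differences among the cathepsins. Of the 7 markers, 5 rose, and Adgre1 and Lyz2 did not pass, where 17.9% of all tested genes were called higher. The 7 markers had a median log2 fold change of 0.37, and their mean log2 level was 0.41 higher in old libraries. In what follows, a gene's log2 fold change is given with its limma adjusted p in parentheses, as a bare number after the first. Cd68 rose by 0.76 (limma adjusted p = 0.000710), Mertk by 0.33 (0.00603), Itgam by 0.37 (0.00825), Fcgr1 by 0.46 (0.0205) and Csf1r by 0.26 (0.0380). The 5 calls became 3 when old replicate 1, old replicate 2, young replicate 1 or young replicate 2 was left out. In the same fits, calls over all genes fell from 4183 to between 2940 and 3230. Without both libraries numbered 3 all 7 markers were called higher, where 30.3% of all tested genes were. When every library was scaled to the mean of these markers, a choice made after seeing the data, the median of all genes moved to -0.41. The shift applies to every gene and list, so log2 fold changes between 0 and 0.41 stand near or below 0 on that scale. On that scale Ctsk (1.99), Ctss (0.88), Ctsl (0.61) and Ctsa (0.18, limma adjusted p = 0.0117) were still called higher and Ctsc (-1.39) lower. Ctsz (0.11, adjusted p = 0.0832), Ctsh (0.04, 0.598), Ctsb (0.03, 0.660) and Ctsd (-0.01, 0.831) were not. The background on that scale was 57.2% of all tested genes called, 5.83% higher and 51.4% lower. The summed cathepsins stood 0.20 higher on the log2 scale over the same markers.

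The make-up of the family differed between the ages. Shares within a library do not depend on the scaling factor of that library. The share of Ctss in the summed counts was 18.5%, 18.4% and 18.3% in old libraries, against 10.9%, 11.8% and 11.7% in young ones. The share of Ctsl was 15.2%, 14.8% and 14.6% in old libraries, against 10.9%, 11.4% and 11.2% in young ones. Both shares were thus higher in old cells, and the libraries numbered 3 no longer stood apart. The share of Ctsb was 36.5%, 36.6% and 36.8% in old libraries, against 41.9%, 40.6% and 41.2% in young ones. The share of Ctsd was 19.8%, 20.1% and 19.8% in old libraries, against 23.1%, 22.8% and 23.1% in young ones. The shares of Ctsb and Ctsd were thus lower in old cells, although neither gene was called lower.

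The share of Ctsc was 1.44%, 1.44% and 1.49% in old libraries, against 4.36%, 4.46% and 4.30% in young ones. Ctsk made up 0.442%, 0.430% and 0.440% of the sum in old libraries, against 0.126%, 0.137% and 0.116% in young ones. These were the widest relative differences among the well-measured members. Ctsz averaged 4.07% in old and 4.32% in young libraries, Ctsh 0.726% in old and 0.810% in young ones, and Ctse 0.00107% in old and 0.00371% in young ones. The share of Ctsa, 3.46% in old and 3.49% in young libraries, overlapped between the ages. The other 9 shares did not overlap, and each had an exact permutation p of 0.1, the smallest possible, and 0.111 after adjustment over the 10 members. The 95% Clopper-Pearson intervals of the shares, which cover counting error only, did not overlap between any old and any young library for Ctsb, Ctsc, Ctsd, Ctsk, Ctsl and Ctss. For Ctsa, Ctse, Ctsh and Ctsz the intervals of some old and some young library did overlap. Overlap of single-library intervals does not measure the counting error of a difference between the groups. By class, cysteine proteases made up 76.6% ± 0.17 of the sum in old libraries and 73.5% ± 0.18 in young ones, and aspartic proteases 19.9% ± 0.17 in old and 23.0% ± 0.17 in young ones.

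**Figure D3:**
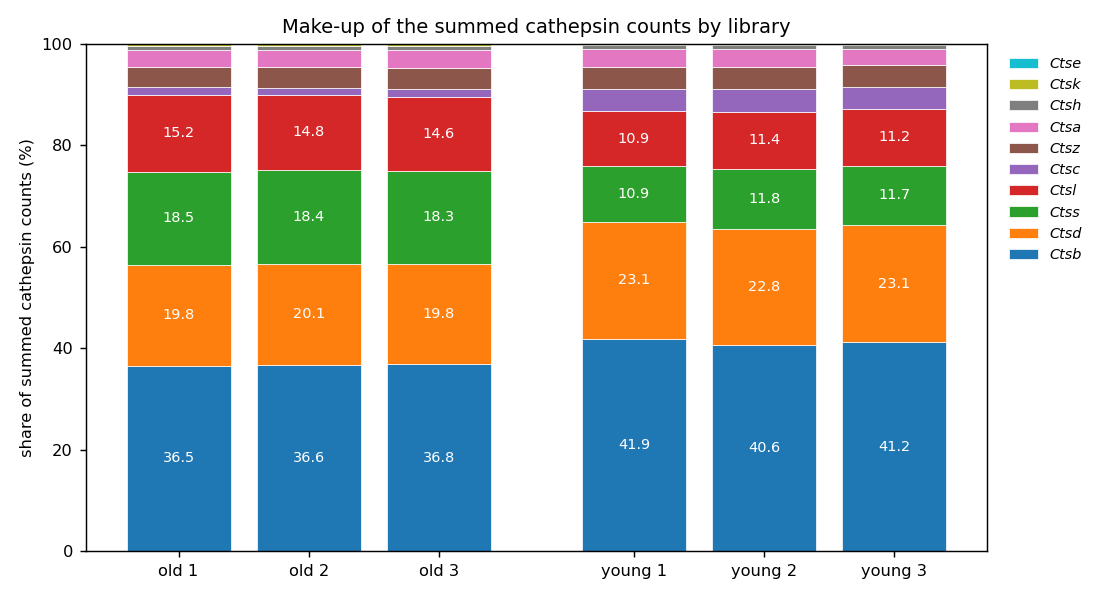
Share of each cathepsin in the summed normalized counts of the 10 genes (percent), stacked for old libraries 1 to 3 and then young libraries 1 to 3. The bands of Ctss and Ctsl are wider in each old library (18.3% to 18.5% and 14.6% to 15.2%) than in each young one (10.9% to 11.8% and 10.9% to 11.4%), and those of Ctsb, Ctsd and Ctsc narrower. Ctsk and Ctse are too thin to be read here.

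Counts favour long transcripts, so levels were also set per kilobase of the principal transcript that matches a curated RefSeq entry. In old cells Ctss came first with 41915 ± 5302 normalized counts per kilobase, followed by Ctsd with 28868, Ctsb with 23818, Ctsl with 23298 and Ctsz with 8693. Ranges over old libraries overlapped for Ctsd and Ctsb and for Ctsb and Ctsl. Within each old library Ctsd stood above Ctsb, by 0.28 ± 0.02 on the log2 scale (SD, n = 3), while Ctsb and Ctsl differed by 0.03 ± 0.03, no more than their spread. In young cells Ctsd came first with 21955 ± 2769, followed by Ctsb with 17616, Ctss with 17222, Ctsl with 11492 and Ctsz with 6070. There Ctsb stood above Ctss by 0.04 ± 0.09 within a library, less than the spread. The lower ranks were Ctsa (2917), Ctsc (1799), Ctsh (1384), Ctsk (892) and Ctse (1.62) in old cells, and Ctsc (3555), Ctsa (1933), Ctsh (1014), Ctsk (168) and Ctse (3.61) in young cells. Ctss thus came first in old cells but below Ctsd in young ones, and Ctsa stood above Ctsc in old cells but below it in young ones. On this scale Ctss was 31.4% of the family in old and 21.2% in young cells. The ranks depend on the length chosen. All annotated exons together span 6489 bases for Ctsl, 5808 for Ctsc and 4715 for Ctsa, against 1971, 2493 and 3646 in the principal transcripts. The places of Ctsl, Ctsc and Ctsa are therefore given for the principal transcript only.

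Differences between members were tested as log2 ratios of normalized counts within each library, for 5 pairs. Ctsk over Ctsb was -6.39 ± 0.02 in old libraries and -8.36 ± 0.13 in young ones, a difference of 1.97. Ctsk over Ctss differed by 1.12 and Ctsl over Ctsb by 0.58, both higher in old cells. Ctsl over Ctss differed by -0.27, so Ctss had gained on Ctsl. Ctsd over Ctsb differed by only -0.04 (-0.88 ± 0.02 in old and -0.84 ± 0.01 in young libraries), and it differed by 0.08 after quantile normalization. The exact permutation p was 0.1 for each pair and 0.1 after adjustment over the 5 pairs. Ctsb and Ctsd therefore moved almost together. Among the 9 tested cathepsins Ctsb lay nearest to Ctsh. Its Euclidean distances between centred log2 values over the 6 libraries were 0.0531 to Ctsh and 0.0591 to Ctsd. As a description, Ctsl and Ctss stood 0.333 apart.

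The genes whose pattern over the 6 libraries lay nearest to that of Ctsk, of 9572 compared by the same distance, were Procr (0.140), Atp6v0d2 (0.145) and Clec4n (0.187). Procr, the endothelial protein C receptor, averaged 1005 ± 74.9 normalized counts in old cells and 195 ± 21.4 in young ones. Atp6v0d2, a proton pump subunit used by osteoclasts and macrophages, had 868 ± 101 in old and 153 ± 9.23 in young cells. Clec4n, the fungal mannan receptor Dectin-2, had 3594 ± 388 in old and 684 ± 99.4 in young cells. Their means were 5.16-, 5.69- and 5.25-fold higher in old cells, against 5.30-fold for Ctsk. Similar folds follow from picking genes by this distance and are a description only. Nearest to Ctsl were Cd300c2 (0.0970), Ifitm6 (0.134) and S100a1 (0.136). Cd300c2, an activating myeloid receptor, had 2095 ± 223 in old and 1006 ± 109 in young cells. Ifitm6 had 236 ± 25.1 in old and 121 ± 19.7 in young cells, and the calcium-binding protein gene S100a1 had 431 ± 67.1 in old and 221 ± 19.4 in young cells.

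Because Ctsk is an osteoclast gene, the other markers of that cell were set beside it. Of 10 such markers, Calcr and Oscar were not in the table. Of the 7 tested, 5 rose, Mmp9 fell and Nfatc1 did not pass, with a median log2 fold change of 0.62. Over all tested genes 17.9% were called higher and 17.6% lower. Atp6v0d2 rose by 2.50 (limma adjusted p = 2.31e-07), and Tnfrsf11a, the RANK receptor, by 0.62 (1438 ± 22.5 in old and 935 ± 42.5 in young cells, 7.12e-05). The fusion gene Dcstamp rose by 1.04 (77.0 ± 12.0 in old and 36.6 ± 1.57 in young cells, 0.00141), Itgb3 by 1.12 (0.00609) and the tartrate-resistant phosphatase Acp5 by 0.36 (0.0433). Mmp9, a gelatinase, had -0.53 (0.00396), and Nfatc1, the master regulator of osteoclast formation, had 660 ± 44.7 in old and 679 ± 57.8 in young cells (-0.04, 0.755). The fusion gene Ocstamp stayed below the filter in both ages, with means of 2.25 in old and 4.45 in young cells. On the macrophage-marker scale Acp5 was at -0.05 and Tnfrsf11a at 0.21, and Tnfrsf11a was not called (limma adjusted p = 0.136). There 3 markers of the list were called higher and 2 lower, where 5.83% of all tested genes were called higher and 51.4% lower.

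Of further proteases of these families, Ctso and Napsa were called higher, where 17.9% of all tested genes were. Ctso, a lesser known lysosomal cysteine protease, averaged 571 ± 39.7 normalized counts in old cells and 356 ± 45.3 in young ones (log2 fold change 0.68, limma adjusted p = 0.000823). Napsa, an aspartic protease related to Ctsd, had 165 ± 30.7 in old and 94.2 ± 12.1 in young cells (0.79, 0.00454). These were the 2 that could be tested of the 5 in the table, while Ctsf, Ctsw and Ctsg stayed below the filter. On the macrophage-marker scale Napsa stood at 0.38 and was not called (limma adjusted p = 0.0991).

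The endogenous inhibitors were called in both directions. Of 6 tested, Cst3, Cstb and Stfa3 rose, Ctla2b fell, and Ctla2a and Cst7 did not pass, with a median of 0.52. The shares over all tested genes were 17.9% higher and 17.6% lower. Cystatin C (Cst3), a secreted inhibitor, averaged 5512 ± 891 normalized counts in old cells and 2927 ± 281 in young ones (log2 fold change 0.90, limma adjusted p = 0.000347). Cystatin B (Cstb), its cytosolic relative, had 5180 ± 697 in old and 3192 ± 365 in young cells (0.70, 0.00130). Both were thus called in the same direction as most of the proteases tested. Ctla2b, whose product resembles the propeptide of cathepsin L and inhibits cysteine cathepsins, had 35.7 ± 5.42 in old and 268 ± 47.1 in young cells (-2.87, 1.93e-06). Stfa3 rose by 0.34 (0.0174) and stood at -0.07 on the macrophage-marker scale. Ctla2a and Ctla2b are close copies, and Stfa3 belongs to a cluster of near-identical stefins, so the split of reads within each is uncertain.

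Of 6 genes for processing enzymes and complex partners, 4 rose and none fell, with a median of 0.38. Of all tested genes 17.9% were called higher and 17.6% lower. Psap, the saposin precursor that binds Ctsd, averaged 94805 ± 8788 normalized counts in old cells and 49295 ± 4796 in young ones (log2 fold change 0.94, limma adjusted p = 0.000596). Ifi30, the thiol reductase that opens disulfides before cathepsins cut, rose by 0.62 (0.00190), and the tripeptidyl peptidase Tpp1 by 0.40 (0.00115). Lgmn, the asparaginyl endopeptidase that processes cathepsin precursors, rose by 0.36 (0.0371). Tpp1 and Lgmn stood at -0.01 and -0.04 on the macrophage-marker scale. The partners that Ctsa protects did not pass the test, with 1332 ± 27.2 in old and 1368 ± 88.6 in young cells for Neu1 (-0.04, 0.711) and 1064 ± 110 in old and 1044 ± 90.8 in young cells for Glb1 (0.02, 0.858). On the macrophage-marker scale Neu1 (-0.44, limma adjusted p = 0.00144) and Glb1 (-0.38, 0.00307) were called lower. There 2 genes of the list were called higher and 2 lower, where 5.83% of all tested genes were called higher and 51.4% lower. Whether Ctsa differed from Neu1 and Glb1 in its age difference was not tested.

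Of 9 genes for sorting by mannose 6-phosphate, 2 rose, 1 fell and 6 did not pass, with a median of 0.02. Called genes were thus 3 of 9, close to the 35.5% called over all tested genes. Igf2r, the large receptor that carries tagged enzymes to endosomes, averaged 11670 ± 248 normalized counts in old cells and 7178 ± 484 in young ones (log2 fold change 0.70, limma adjusted p = 0.000102). The small receptor M6pr had 4695 ± 510 in old and 4109 ± 462 in young cells and did not pass (0.19, 0.187). The subunits of the tagging enzyme split, with Gnptg at 0.41 (0.0213) and Gnptab at -0.21 (0.0311). The 3 calls became 1 when old replicate 1, old replicate 2, young replicate 1 or young replicate 2 was left out. Those fits called between 2940 and 3230 of all genes, against 4183 with every library. Without both libraries numbered 3 the list had 4 genes called higher and 1 lower. In that fit 30.3% of all tested genes were called higher and 28.7% lower, and M6pr passed (0.37, limma adjusted p = 2.60e-06). On the macrophage-marker scale 1 was called higher (Igf2r) and 7 lower, where 51.4% of all tested genes were called lower.

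Among 11 MiT-TFE factors and their Rag and folliculin regulators, 6 rose, 1 fell, and Fnip1, Rraga, Rragc and Zkscan3 did not pass, with a median of 0.23. Calls over all tested genes were 17.9% higher and 17.6% lower. Mitf averaged 1476 ± 47.5 normalized counts in old cells and 834 ± 24.4 in young ones (log2 fold change 0.82, limma adjusted p = 1.04e-05). Rragd rose by 0.62 (0.00534) and Flcn by 0.25 (0.0155), and Tfe3 fell by 0.24 (0.0174). Tfeb, the factor most often tied to lysosomal genes, had 298 ± 45.8 in old and 226 ± 26.9 in young cells (0.39, 0.0483) and stood at -0.01 on the macrophage-marker scale. The 7 calls became 4 when old replicate 1, old replicate 2 or young replicate 1 was left out, and 2 when young replicate 2 was. Calls over all genes fell from 4183 to between 2940 and 3230 in the same fits. Without both libraries numbered 3 the list had 6 genes called higher and 2 lower, where 30.3% of all tested genes were called higher and 28.7% lower. On the macrophage-marker scale Rragd was at 0.22 and not called (limma adjusted p = 0.209), and Flcn was at -0.16. On that scale 1 gene of the list was called higher and 4 lower, where 5.83% of all tested genes were called higher and 51.4% lower.

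Genes of class II antigen presentation, which Ctss serves, had a higher median log2 fold change than the cathepsins, a difference that was not tested. Of 7, 6 rose and H2-DMa did not pass, with a median of 1.33, where 17.9% of all tested genes were called higher. Cd74 averaged 5645 ± 1028 normalized counts in old cells and 2222 ± 169 in young ones (log2 fold change 1.33, limma adjusted p = 4.45e-05). The class II chain H2-Aa had 1270 ± 355 in old and 413 ± 74.9 in young cells (1.59, 0.000322). Ciita, the transactivator of these genes, had 113 ± 18.8 in old and 25.9 ± 7.88 in young cells (2.12, 0.000164). B cells also express these genes.

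**Figure D4:**
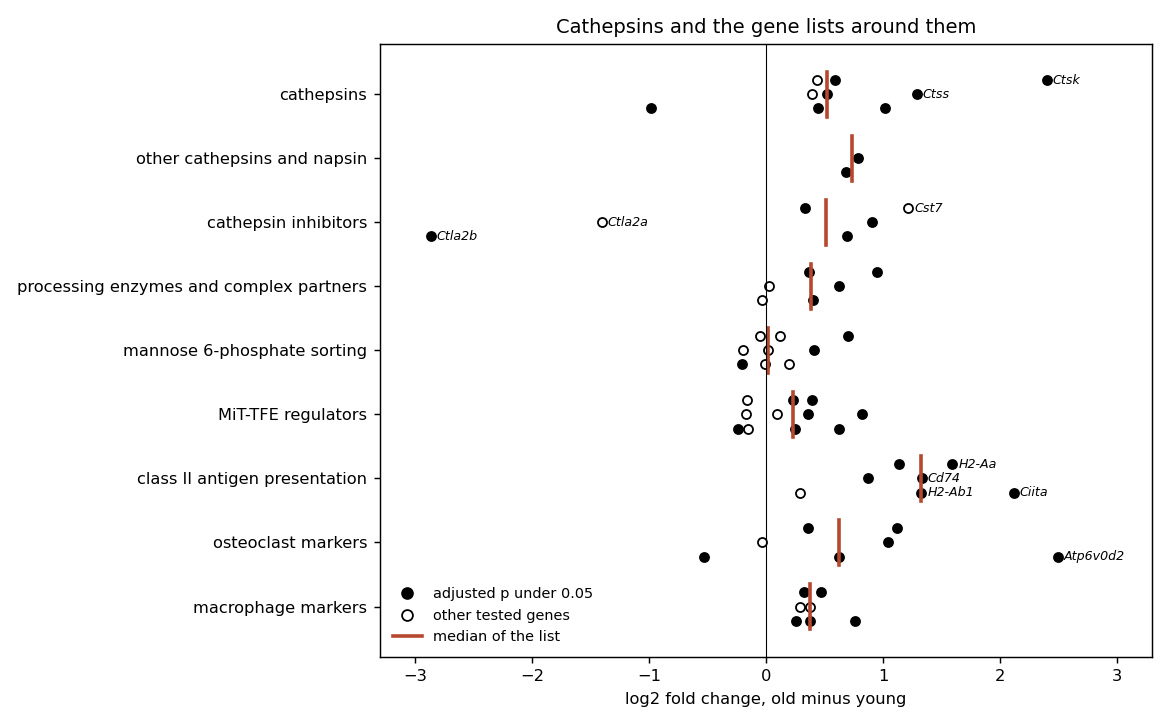
Log2 fold change, old minus young, of each tested gene in the cathepsins and 8 lists around them, with filled points for an adjusted p under 0.05, open points for the rest, and a red line for the median of the list. The medians run from 0.02 for mannose 6-phosphate sorting to 1.33 for class II antigen presentation, and the cathepsins stand at 0.52.

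Markers of other cells also moved with age, beside every result above. For comparison, 17.9% of all tested genes were called higher and 17.6% lower. All 6 B cell markers rose, with a median log2 fold change of 4.68, and their sum was 1082 to 2318 normalized counts in old libraries and 47.3 to 56.3 in young ones. The 5 tested mast cell markers Cpa3, Cma1, Mcpt4, Tpsb2 and Kit all rose, with a median of 3.18 and sums of 534 to 605 in old and 38.2 to 62.5 in young libraries. Of 9 neutrophil markers only S100a8, Csf3r and Camp were in the table, while S100a9, Ly6g, Mpo, Elane, Ngp and Retnlg were not. The 3 present summed to 993 to 1101 in old and 488 to 498 in young libraries, with Camp at 0 in old libraries. S100a8 and Csf3r were called higher, Csf3r not on the macrophage-marker scale, where its limma adjusted p was 0.163. T and NK cell markers summed to 22.9 to 47.0 in old and 0.845 to 3.51 in young libraries, and no marker of that list passed the filter. Dendritic cell markers summed to 35.6 to 52.6 in old and 15.2 to 22.8 in young libraries. Of these, Ccr7 was called higher (means of 30.5 in old and 7.47 in young cells). Flt3, Zbtb46, Xcr1, Clec9a and Siglech stayed below the filter. Siglecf, the 1 eosinophil marker in the table, had 3.59 to 6.84 in old and 3.02 to 7.02 in young libraries. Mesothelial and fibroblast markers summed to 385 to 467 in old and 359 to 442 in young libraries, where Col3a1 and Pdgfra rose and Col1a1 fell. The part of these cells in the cathepsin differences was not tested.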

How the data were processed

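RNA of 3 old and 3 young macrophage libraries had been prepared with the TruSeq protocol, per the labels. The deposited values are a signal per gene and library: counts that the authors scaled by library size factors. DESeq2 and the build mm10 are named in the submitters' processing notes. The sources used here do not give the aligner, the counter or the use of strand. Symbols, positions and transcripts come from GENCODE M21 on GRCm38, with 19917 of 19973 identifiers matched. In each column 100% of values were whole multiples of 1 step, within 0.01 reads, so reads were recovered by division. In young replicate 1 that step lay close to 1, so there the recovery is less certain, and tests on reads serve as alternatives only.

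Age differences were fitted with limma 3.58.1 in R 4.3.3, with a variance trend, on log2(normalized count + 1), old minus young, over 11795 genes with a mean of at least 10, and adjusted with Benjamini-Hochberg at 0.05. Adjusted p-values are limma's unless another tool is named, and fold changes on this scale understate those of low genes. Fold values are ratios of mean normalized counts. The alternatives were DESeq2 1.42.0 and the quasi-likelihood test of edgeR 4.0.16, both on recovered reads (3743 and 4324 genes called), other pseudocounts, filters and scalings, and leaving out libraries. Sums, shares and ratios had two-sided exact permutation tests. No pair of libraries agreed within sampling noise.

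The members and lists were chosen with earlier results of these data known. Named genes are all members, up to 3 called genes with the smallest adjusted p per list, any where a direction counts 5 or fewer, and the 3 nearest to Ctsk and to Ctsl. Others were chosen after their values were seen.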

Additional observations from a re-analysis of the deposited data

How the results depend on the processing

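Over 20 alternatives, 4 to 8 cathepsins were called higher and 1 lower in each, with log2 fold changes of 1.99 to 2.54 for Ctsk, 0.77 to 1.51 for Ctss, 0.59 to 1.24 for Ctsl, 0.18 to 0.73 for Ctsa and -1.39 to -0.81 for Ctsc, all called in every alternative. Ctsd changed sign when scaled to the macrophage markers (-0.0142). With quantile normalization the share of Ctsa differed by 0.163 percentage points, that of Ctsh by 0.0933, and Ctsd over Ctsb by 0.0800 on the log2 scale, each with the opposite sign. The share of Ctsa also changed sign without old replicate 1 (0.0303) and without young replicate 1 (0.0333), within a range of -0.107 to 0.0333 with 1 library left out. The cause was not tested. Of all genes, 4183 were called, against 7634 with array quality weights, 6960 without both libraries numbered 3, 6770 scaled to the macrophage markers and 2940 to 5660 with 1 library left out. Calls split into 2107 higher and 2076 lower in old cells, against 1686 and 2788 scaled to read totals and 690 and 6080 scaled to the macrophage markers. The sum of the family differed by 0.20 to 0.81 (log2). With 3 libraries a group no exact test could pass 0.05, and Ctse, at 10 reads in all old and 26 in all young libraries, was too shallow for a statement.

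Replicate numbers are shared by the ages, and deviations of same-numbered libraries correlated at -0.412, -0.362 and -0.658. Old replicate 3 and young replicate 3 stood at opposite ends of principal component 2. With so few libraries, these values cannot decide whether the numbers pair the samples. With a replicate block 2643 genes were called, Ctsh did not pass (adjusted p = 0.0556), and calls in the mannose 6-phosphate, MiT-TFE and macrophage marker lists numbered 1, 2 and 2.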
